A study of Homo sapiens with 33 samples.

Results

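The 10 genes described here are the G1 cyclins CCND1, CCND2, CCND3, CCNE1 and CCNE2 and the CDK inhibitors CDKN1A, CDKN1B, CDKN1C, CDKN2A and CDKN2B. They were taken by symbol from a table of 56470 gene symbols, and all 10 were found. The table holds bulk poly(A) RNA sequencing of 3 head and neck squamous cell carcinoma (HNSCC) lines, SCC1 (UM-SCC-1), SCC6 (UM-SCC-6) and SCC25, that the study treated with cetuximab, an antibody against EGFR, to follow early responses while the cells were still sensitive. Each line has a PBS library on days 0, 1, 2, 3, 4 and 5 and 5 libraries with 100 nM cetuximab (CTX), in all 33 libraries. The cetuximab libraries of SCC1 and SCC25 are labelled days 1, 2, 3, 4 and 5. Those of SCC6 carry day 2 on 2 libraries and day 1 on none, and the pair is called 2a and 2b here, in accession order. No genetic change was made to any line. The labels give different media, with hydrocortisone for SCC1 and SCC25 and without it for SCC6, and fewer cells plated for SCC25, so a difference between lines cannot be told apart from a difference in culture. Nothing states that the libraries came from separate cultures, so libraries of different days stand in for replicates, and p-values measure the spread between those libraries.

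D cyclins bind CDK4 and CDK6, and their level follows growth factor signals through the ERK pathway. Together with cyclin E and CDK2 they phosphorylate the retinoblastoma protein, which frees E2F factors to switch on the genes of S phase. INK4 inhibitors (p16 from CDKN2A, p15 from CDKN2B) bind CDK4 and CDK6, whereas CIP/KIP inhibitors (p21 from CDKN1A, p27 from CDKN1B, p57 from CDKN1C) act on cyclin-bound CDKs, cyclin E with CDK2 above all. In squamous carcinoma, loss of the CDKN2A locus and gain of the CCND1 locus are common.

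Libraries held between 28508758 and 80727478 estimated counts, the deepest being SCC6 with cetuximab on days 4 and 5. Flow cells, read from the run codes in the labels, were not balanced. The SCC1 cetuximab libraries shared a flow cell with PBS day 5 but with no other SCC1 PBS library. In SCC6, cetuximab days 4 and 5 were alone on theirs, and in SCC25 cetuximab days 3 to 5 were apart from the PBS libraries. All 9 squamous epithelial markers were in the table, and their summed level in SCC1 was 2430 to 3580 CPM with PBS and 7340 to 11300 with cetuximab. The ranges overlapped in SCC6, at 2440 to 3290 and 2890 to 3830 CPM, and in SCC25, at 10700 to 15500 and 12900 to 15200. Fibroblast markers (7 genes) summed to 21 to 32.9 CPM in SCC1 PBS libraries and 50 to 146 with cetuximab, to 2.97 to 5.09 and 8.87 to 97.5 in SCC6, and to 136 to 177 and 224 to 338 in SCC25. Of the 9 squamous markers, 7 rose and EPCAM fell in SCC1 (-0.73, adjusted p = 0.00015), 3 rose and EPCAM and DSG3 fell in SCC6, and 2 rose and 1 fell in SCC25. Of the fibroblast markers, in SCC1 4 of the 4 tested rose, in SCC6 COL1A1 and PDGFRB rose of 2 tested, with DCN, LUM and THY1 at means of 0.13 CPM or less, and in SCC25 3 of 7 rose and 1 fell. Leukocyte markers (5 genes) summed to at most 7.22 CPM and endothelial markers (4 genes) to at most 18.5. The part of these markers in the results on the cyclins and inhibitors was not tested. In bulk RNA, fewer cells of a type and less RNA per cell cannot be told apart.

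Levels are given in CPM, a count relative to the total of its library, after TMM scaling over all 33 libraries. In the PBS libraries of days 1 to 5, CDKN1A and CCND1 stood highest per kb of transcript in every line, and CCND2, CDKN1C and the INK4 genes separated the lines most. CCND1 was at 70.3, 125 and 285 CPM per kb in SCC1, SCC6 and SCC25, and CDKN1A at 104, 116 and 69.3. Per kb, CDKN1C ranged from 0.149 in SCC1 through 0.632 in SCC6 to 3.62 in SCC25. CDKN2A was at 11.8 CPM per kb in SCC1 and 0.532 in SCC25, and no count was found in SCC6.

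**Figure D1:**
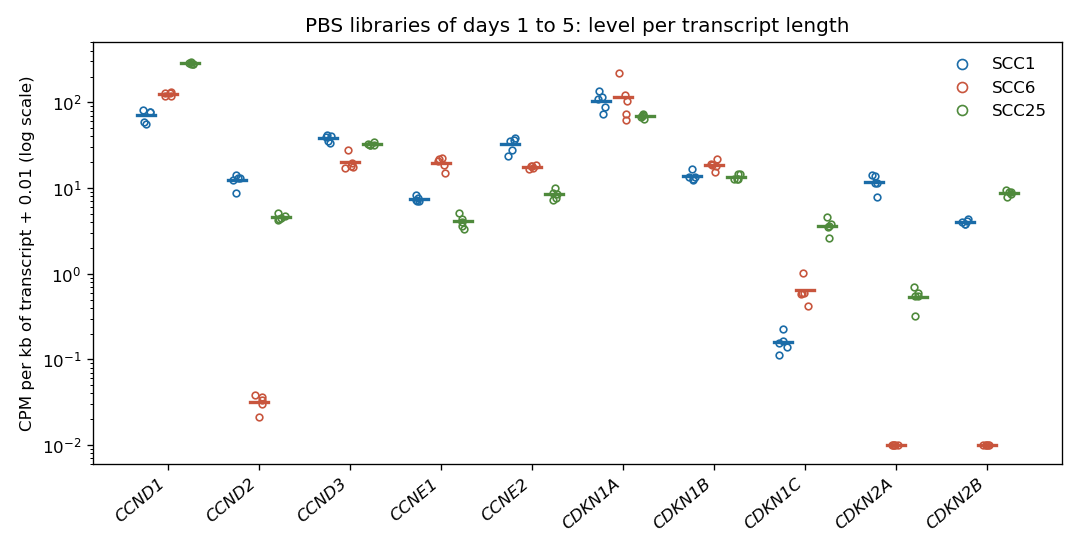
Level of each gene per kb of its canonical transcript (CPM per kb + 0.01, log axis) in the PBS libraries of days 1 to 5. Open points are the 5 libraries of a line and bars their mean; CDKN2A and CDKN2B of SCC6 lie on the floor set by the added 0.01, and CCND1 rises from SCC1 through SCC6 to SCC25.

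Between lines, 9 of the 10 genes differed for SCC1 against SCC6, where 68.9% of all genes tested were called at an adjusted p under 0.05. For SCC1 against SCC25 it was 7 of 10 beside 68.3% of all genes, and for SCC6 against SCC25 10 of 10 beside 72% of all genes. The lines thus differed in most genes, these 10 among them. On the log2 scale of CPM within a gene, CCND1 was higher in SCC25 than in SCC6 (SCC6 minus SCC25 -1.18 ± 0.09 (SE), adjusted p = 2.1e-09) and higher in SCC6 than in SCC1 (SCC1 minus SCC6 -0.84 ± 0.09 (SE), adjusted p = 1.9e-07). CCND2 was highest in SCC1, then SCC25, and nearly absent from SCC6. Its mean was 2.72 times higher in SCC1 than in SCC25, and 557 times higher in SCC1 than in SCC6, which held 22 counts over its 5 PBS libraries. CCND3 did not pass the test between SCC1 and SCC25 (0.22 ± 0.11 (SE), adjusted p = 0.08), and both were above SCC6. The difference between SCC1 and SCC25 passed without day 1 of SCC1 (adjusted p = 0.045) or of SCC6 (0.0045), and when scaled by total counts (0.29, adjusted p = 0.027). CCNE1 was highest in SCC6, then SCC1, then SCC25, and CCNE2 was highest in SCC1, then SCC6, then SCC25. CDKN1B was higher in SCC6 than in the other two lines, which did not pass the test against each other (0.01 ± 0.10 (SE), adjusted p = 0.9). For CDKN1A, SCC1 passed the test against neither SCC6 (-0.16 ± 0.27 (SE), adjusted p = 0.61) nor SCC25 (0.58 ± 0.27 (SE), adjusted p = 0.072), and SCC6 was above SCC25 (0.74 ± 0.27 (SE), adjusted p = 0.024). That call was lost without SCC6 day 1 (0.39, adjusted p = 0.095) and with no filter on low counts (0.71, adjusted p = 0.09). SCC1 passed against SCC25 without SCC1 day 1 (adjusted p = 0.037), SCC6 day 1 (0.014) or SCC6 day 5 (0.043). It passed too by DESeq2 (0.57, adjusted p = 0.043) and by total counts (0.65, adjusted p = 0.044). Scaling by total counts moved the median of all genes by 0.18 for SCC1 against SCC6 and by -0.11 for SCC6 against SCC25, and under it the share of higher calls for SCC1 against SCC6 was 59.8% in place of 50%.

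Under cetuximab, 7 of the 10 genes changed in SCC1, 2 upward and 5 downward, where 44.5% of all genes tested were called. In SCC6, 4 of the 7 genes that passed the count filter changed, 2 in each direction, beside 30.1% of all genes. CCND2, CDKN2A and CDKN2B of SCC6 were too low to test. In SCC25, 3 of 10 changed, 1 upward and 2 downward, beside 18.2% of all genes. Over all genes called in SCC25 the share of rises was 47.9%, but 64.9% when scaled by total counts and 37.6% with the trend in GC content removed. The called cyclins fell in every line and the called inhibitors rose, with the exception of CDKN1A, which fell in SCC1. The median log2 change of the tested members was -0.22 in SCC1, -0.24 in SCC6 and -0.07 in SCC25, against 0.02, 0.00 and 0.01 over all genes tested.

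**Figure D2:**
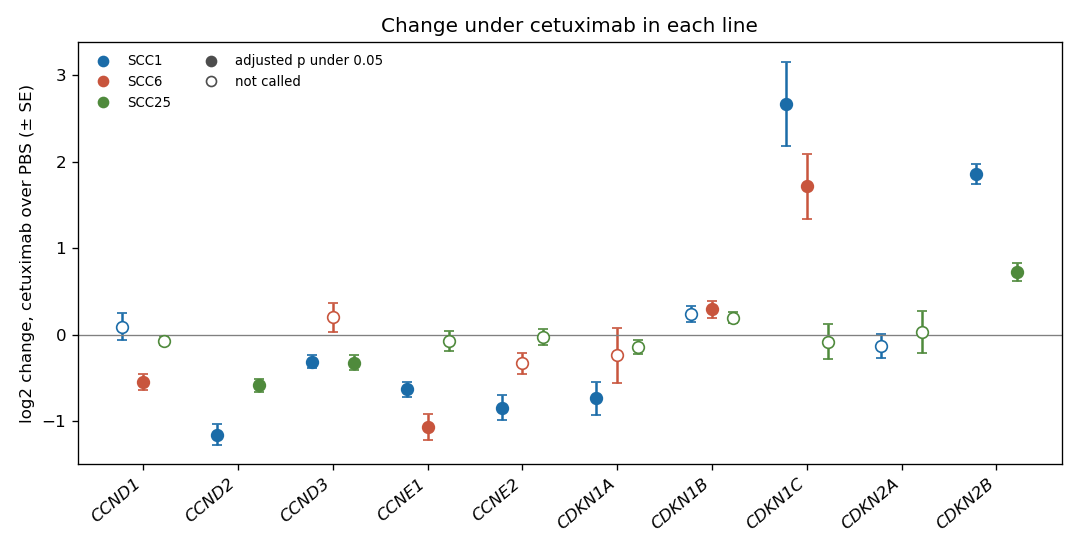
Log2 change from PBS to cetuximab in SCC1, SCC6 and SCC25 (vertical axis, ± SE from the fit of 5 against 5 libraries). Filled points have an adjusted p under 0.05; CDKN2B lies above 0 in SCC1 and SCC25, CCNE1 below 0 with filled points in SCC1 and SCC6, and genes without a point were too low to test.

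The promoters of 3 genes are shown, each with a single start in the RefSeq table and a level that moved one way in more than one line. CDKN1A, with a single start and a negative log2 change in each line, called in SCC1, also met this and is not shown. CCNE1 was called lower in 2 lines, CDKN2B was called higher in both lines that expressed it, and the CDKN1B level was higher in all 3. They are the 250 bases before each RefSeq start on GRCh38.p14, read along the gene, and capitals mark the GC box, with the letters GGGCGG, and the CCAAT box, named for its letters. Both strands were searched.
CCNE1, chr19:29811741-29811990, plus strand: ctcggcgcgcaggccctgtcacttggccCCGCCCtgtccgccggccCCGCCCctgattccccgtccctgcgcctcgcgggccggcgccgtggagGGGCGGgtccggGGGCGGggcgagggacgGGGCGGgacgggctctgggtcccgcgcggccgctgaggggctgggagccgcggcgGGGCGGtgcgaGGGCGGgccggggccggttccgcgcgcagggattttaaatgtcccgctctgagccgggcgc
CDKN1B, chr12:12717118-12717367, plus strand: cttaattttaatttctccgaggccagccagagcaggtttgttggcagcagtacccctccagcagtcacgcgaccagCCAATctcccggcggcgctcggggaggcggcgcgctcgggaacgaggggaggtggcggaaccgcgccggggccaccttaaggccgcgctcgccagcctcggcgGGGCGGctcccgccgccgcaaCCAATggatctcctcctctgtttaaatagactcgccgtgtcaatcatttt
CDKN2B, chr9:22009306-22009555, minus strand: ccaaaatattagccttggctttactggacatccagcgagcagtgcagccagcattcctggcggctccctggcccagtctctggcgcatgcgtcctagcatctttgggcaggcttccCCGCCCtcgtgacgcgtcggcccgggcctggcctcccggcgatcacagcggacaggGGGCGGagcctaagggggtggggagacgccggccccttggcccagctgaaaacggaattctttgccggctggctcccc
The CCNE1 window held 7 GC boxes, that of CDKN2B 2, and that of CDKN1B 1 GC box and 2 CCAAT boxes. Among 35116 starts in the table, 42.6% had GGGCGG and 32% CCAAT within the same length. The E2F letters TTTCGCGC, TTTGGCGC and TTTCCCGC, the AP-1 letters TGANTCA, the FOXO letters TGTTTAC, the CRE letters TGACGTCA, the SMAD letters GTCTAGAC, the E box CACGTG and the TATA box TATAAA were searched too. They are in 0.439%, 0.55%, 1.39%, 6.57%, 2.98%, 1.65%, 0.182%, 6.34% and 10.7% of all starts, in that order, and in none of the 3 windows.

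CCND1 encodes cyclin D1 and lies at chromosome 11, 69455924 to 69469242, plus strand, on GRCh37 by GENCODE release 44, as for all positions given by chromosome, start and end. In SCC6 its PBS levels on days 1 to 5 were 538, 566, 547, 504 and 501 CPM, and those with cetuximab were 357, 313, 378, 409.9 and 384 in libraries 2a, 2b, 3, 4 and 5. Every cetuximab library was below every PBS library, and the log2 change was -0.55 ± 0.09 (SE), adjusted p = 0.00095. On the flow cell that PBS days 2 to 5 share with cetuximab 2a, 2b and 3, PBS libraries held 501 to 566 CPM and cetuximab libraries 313 to 378. The PBS and cetuximab libraries lay in different lanes of that flow cell, so lane and treatment cannot be told apart there. In SCC1 the PBS libraries gave 239, 328, 347, 323 and 252 CPM and the cetuximab libraries 218, 301, 319, 344 and 392. These overlapped over nearly their whole range, with a log2 change of 0.09 ± 0.16 (SE), adjusted p = 0.67. In SCC25, where the level was highest, PBS libraries held 1268, 1225, 1180, 1190 and 1174 CPM and cetuximab libraries 1090, 1132, 1091, 1212 and 1247. The ranges overlapped there as well, with a log2 change of -0.07 ± 0.05 (SE), adjusted p = 0.38. Of the 10 neighbours of CCND1 in 11q13 that were in the table, 7 of the 8 with counts under PBS were also highest in SCC25. MYEOV was the exception, at 19.9 ± 1.91 CPM in SCC6, 2.57 ± 0.369 in SCC25 and 1.21 ± 0.386 in SCC1 (SD, n = 5). CTTN, which encodes cortactin, was at 1346 ± 74.9 CPM in SCC25 against 456 ± 28.7 in SCC1 and 266 ± 47.3 in SCC6 (SD, n = 5). ANO1, a chloride channel gene, was at 424 ± 38.7 CPM in SCC25 and 0.0715 ± 0.0245 in SCC1, and PPFIA1 and FADD were also highest in SCC25.

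CCND2 encodes cyclin D2 (chromosome 12, 4378937 to 4414519, plus strand). Its PBS levels in SCC1 were 57.1, 85.1, 92.9, 85.6 and 80.5 CPM on days 1 to 5, and the cetuximab levels were 30.2, 38.8, 41.04, 34.5 and 34.2. All cetuximab libraries were below all PBS libraries, and the log2 change was -1.16 ± 0.12 (SE), adjusted p = 1.2e-05. Beside PBS day 5, the sole PBS library on their flow cell, at 80.5 CPM, the cetuximab libraries of SCC1 lay at 30.2 to 41.0. In SCC25 PBS libraries gave 27.9, 29.3, 32.8, 30.3 and 27.4 CPM and cetuximab libraries 21.3, 19.9, 21.4, 17.6 and 18.8. These groups did not overlap either (log2 change -0.58 ± 0.07 (SE), adjusted p = 0.00041), and the cetuximab libraries of days 1 and 2, which share the flow cell of the PBS libraries, were at 21.3 and 19.9 CPM. The fall was larger in SCC1 than in SCC25: the difference of the log2 changes, SCC25 minus SCC1, was 0.60 ± 0.14 (SE), adjusted p = 0.0063. SCC6 held between 0 and 12 counts per library in either group.

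CCND3, which encodes cyclin D3, lies at chromosome 6, 41902672 to 42018095, minus strand. SCC1 held 67.6, 71.9, 84.4, 82.5 and 80.3 CPM with PBS and 53.1, 60.9, 65.1, 63.03 and 67.5 with cetuximab. The groups were adjacent, the highest cetuximab library lying just under the lowest PBS library, and the log2 change was -0.31 ± 0.07 (SE), adjusted p = 0.0044. With flow cell as a covariate it was -0.36 with adjusted p = 0.06. In SCC25 the levels were 63.8, 66.5, 65.1, 65.02 and 69.8 CPM with PBS and 58.2, 57.2, 40.3, 53.8 and 55.03 with cetuximab. Cetuximab day 3 stood well below the others, and no cetuximab library reached the PBS range (log2 change -0.32 ± 0.09 (SE), adjusted p = 0.025). That call was lost without PBS day 2, 3 or 5 or cetuximab day 4 (adjusted p = 0.051 to 0.058) and with flow cell as a covariate (-0.19, adjusted p = 0.28). In SCC6 the PBS levels were 55.6, 34.6, 36.3, 39.99 and 35.6 CPM and the cetuximab levels 42.5, 39.3, 38.6, 59.6 and 55.5, with a log2 change of 0.20 ± 0.17 (SE), adjusted p = 0.39. Cetuximab days 4 and 5 were the highest there together with PBS day 1, and without days 4 and 5 of both groups the log2 change was -0.10.

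CCNE1 encodes cyclin E1, the partner of CDK2 (chromosome 19, 30302898 to 30315219, plus strand). In SCC6, the line with the highest level, PBS libraries held 42.7, 40.1, 43.2, 36.6 and 28.96 CPM and cetuximab libraries 18.5, 24.6, 15.7, 16.1 and 17.6. No cetuximab library reached the PBS range, and the log2 change was -1.07 ± 0.15 (SE), adjusted p = 0.00044. On the shared flow cell, in different lanes, PBS days 2 to 5 held 29.0 to 43.2 CPM and cetuximab 2a, 2b and 3 held 15.7 to 24.6. In SCC1 the levels were 13.9, 14.3, 14.98, 16.3 and 13.7 CPM with PBS and 9.63, 7.86, 9.85, 9.27 and 10.3 with cetuximab. The groups stood apart (log2 change -0.63 ± 0.09 (SE), adjusted p = 7.2e-05), and PBS day 5, on the flow cell of the cetuximab libraries, was at 13.7 CPM. SCC25 had 9.91, 8.44, 7.79, 6.45 and 7.08 CPM with PBS and 7.74, 8.03, 6.98, 6.91 and 8.19 with cetuximab. The PBS values there fell over the days and enclosed the cetuximab values (log2 change -0.07 ± 0.12 (SE), adjusted p = 0.71). The change in SCC25 minus that in SCC1 was 0.58 ± 0.15 (SE) on the log2 scale, adjusted p = 0.0087.

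CCNE2 encodes cyclin E2, another partner of CDK2 (chromosome 8, 95891998 to 95908906, minus strand). SCC1 libraries held 74.5, 63.7, 94.4, 102 and 97.99 CPM with PBS and 49.9, 36.1, 53.7, 54.1 and 45.98 with cetuximab. The groups did not overlap, and the log2 change was -0.84 ± 0.14 (SE), adjusted p = 0.00064. In SCC6 PBS libraries were tightly grouped at 45, 48.95, 49.3, 48.5 and 45.9 CPM, and the cetuximab libraries gave 34.9, 49.8, 36.9, 30.3 and 39.4. Library 2b lay above all PBS libraries and the other 4 below them. The log2 change of -0.33 ± 0.12 (SE), adjusted p = 0.062 did not pass by edgeR and passed by DESeq2 (-0.34, adjusted p = 0.04), with day 0 added to PBS and without library 2b. In SCC25 the levels were 26.8, 22.9, 20.2, 23.4 and 19.6 CPM with PBS and 21.5, 21.5, 25.97, 19.8 and 22.7 with cetuximab, fully overlapping (log2 change -0.03 ± 0.10 (SE), adjusted p = 0.88). SCC25 differed from SCC1 in its change by 0.84 ± 0.18 (SE), adjusted p = 0.0026.

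CDKN1A, the gene of p21, is a target of p53 and of differentiation and stress signals (chromosome 6, 36644237 to 36655114, plus strand). In SCC1 PBS libraries rose from 108 CPM on day 0 to the peak of day 3, with 153, 243, 287, 234 and 185 CPM on days 1 to 5, and cetuximab libraries gave 91.4, 121, 157, 149 and 138. The highest cetuximab library exceeded the lowest PBS library, of day 1, but on each day cetuximab was the lower. The log2 change was -0.73 ± 0.19 (SE), adjusted p = 0.0097, and the call was lost with flow cell as a covariate (-0.48, adjusted p = 0.32) and with day 0 added (-0.62, adjusted p = 0.059). In SCC25 PBS libraries held 136, 144, 148, 151 and 155 CPM and cetuximab libraries 136, 142, 103, 148 and 139. Apart from cetuximab day 3 these were close to one another (log2 change -0.14 ± 0.09 (SE), adjusted p = 0.28).

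SCC6 showed another course, with CDKN1A falling under PBS and higher on later cetuximab days. PBS libraries held 549.6 CPM on day 0 and 462, 259.7, 217, 156 and 132 on days 1 to 5. Each PBS library was below the one of the day before, with a fitted slope on the log2 scale of -0.45 ± 0.03 (SE), adjusted p = 0.00015 per day. Cetuximab libraries 2a, 2b, 3, 4 and 5 held 173, 129, 203, 261 and 288 CPM. Cetuximab was below PBS on day 3 and above it on days 4 and 5, so over all days the groups overlapped and the log2 change was -0.24 ± 0.32 (SE), adjusted p = 0.61, with the opposite sign (0.12) without PBS day 1. Later days against earlier ones, the log2 difference between cetuximab and PBS moved by 1.84 ± 0.41 (SE), adjusted p = 0.086. Cetuximab days 4 and 5 are alone on their flow cell, which cannot be told apart from the period.

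**Figure D3:**
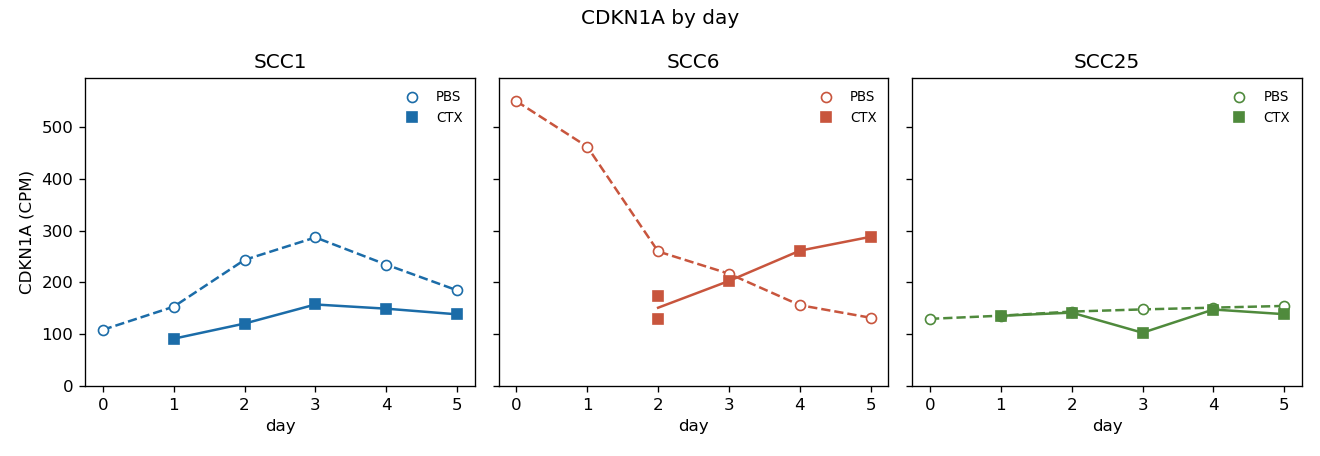
CDKN1A in CPM by day in each line, with PBS as open circles and dashed lines and cetuximab (CTX) as filled squares and solid lines; lines join the mean of each day. In SCC6 the PBS curve falls from 549.6 to 132 CPM and crosses the cetuximab curve after day 3, which reaches 288 CPM; in SCC25 the curves stay near each other apart from day 3.

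CDKN1B, the gene of p27 (chromosome 12, 12838432 to 12875303, plus strand), was higher with cetuximab in every line, by a similar amount. It passed the main edgeR test in 1 of the 3, and whether it passed in a line depended on the setting. In SCC6 PBS libraries held 37.2, 44.6, 43.2, 45.8 and 53.05 CPM and cetuximab libraries 56.1, 53.7, 57.6, 53.6 and 56.2. All cetuximab libraries were above all PBS libraries, by little over PBS day 5, with a log2 change of 0.29 ± 0.10 (SE), adjusted p = 0.037. The SCC6 call was lost when the days were taken as blocks, with adjusted p = 0.063 or 0.062 depending on which day 2 library stood for day 1. It was lost too with no filter on low counts (adjusted p = 0.068), and without PBS day 2, 3 or 4 or cetuximab 2a, 3, 4 or 5 (adjusted p = 0.053 to 0.095). SCC1 gave 40.2, 32, 29.5, 32.3 and 30.3 CPM with PBS and 45.4, 39.1, 35.9, 36.9 and 35.9 with cetuximab. The ranges overlapped because PBS day 1 was high, but cetuximab was higher on each of 5 days (log2 change 0.24 ± 0.09 (SE), adjusted p = 0.051). The SCC1 change passed with the day as block (adjusted p = 0.0032), without PBS day 1 (0.0039), by total counts (0.036) and with no filter (0.048). In SCC25 the levels were 30.4, 31.1, 35, 34.9 and 30.4 CPM with PBS and 39.3, 39.5, 37.6, 36.1 and 33.8 with cetuximab. Cetuximab was higher on each of 5 days as well (log2 change 0.20 ± 0.07 (SE), adjusted p = 0.061). The SCC25 change passed with the day as block (adjusted p = 0.046), without cetuximab day 5 (0.04), by DESeq2 (0.026) and by total counts (0.027). It passed too with day 0 added to PBS (adjusted p = 0.031) and with flow cell as a covariate (0.049). The change did not pass the test of a difference between lines (adjusted p = 0.79), which does not show that it is the same.

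CDKN1C encodes p57 (chromosome 11, 2904443 to 2907005, minus strand) and was the lowest of the CIP/KIP genes. Its counts in SCC1 were 9, 8, 13, 17 and 12 with PBS and 33, 47, 40, 66 and 167 with cetuximab. These correspond to at most 0.382 CPM with PBS and at least 0.749 with cetuximab, and day 5 with cetuximab, at 4.02 CPM, was far above the rest. The log2 change was 2.67 ± 0.49 (SE), adjusted p = 0.00091, and without cetuximab day 5 it was 2.05. With flow cell as a covariate the change was 2.71, adjusted p = 0.085. SCC6 libraries held 0.998, 0.728, 1.04, 1.04 and 1.80 CPM with PBS and 2.77, 1.23, 4.11, 5.86 and 4.51 with cetuximab. Only library 2b lay within the PBS range (log2 change 1.72 ± 0.37 (SE), adjusted p = 0.0051). In SCC25, where the level was higher, PBS libraries gave 4.59, 6.15, 6.72, 6.40 and 8.20 CPM and cetuximab libraries 6.46, 8.75, 3.87, 5.79 and 5.47. The groups overlapped and the log2 change was -0.08 ± 0.20 (SE), adjusted p = 0.82, its sign depending on the setting. The change in SCC25 was lower than that in SCC1 by 2.73 ± 0.54 (SE) on the log2 scale, adjusted p = 0.0016.

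CDKN2A encodes p16 and, from another first exon, p14ARF (chromosome 9, 21967751 to 21995300, minus strand). The counts are per gene and do not separate the 2 products. SCC1 held 11.2, 11.2, 13.5, 14.03 and 7.74 CPM with PBS and 9.10, 10.97, 10.2, 9.70 and 12.2 with cetuximab. The ranges overlapped, and the log2 change was -0.13 ± 0.14 (SE), adjusted p = 0.48. With flow cell as a covariate the sign turned, to a log2 change of 0.45 with adjusted p = 0.095. In SCC25 the counts were 35, 27, 22.066, 13.17 and 26.279 with PBS and 31, 30, 12.705, 25.45 and 23 with cetuximab. Both groups were low and overlapped (log2 change 0.03 ± 0.24 (SE), adjusted p = 0.95). The PBS mean was 22.2 times higher in SCC1 than in SCC25. No count was found in any of the 11 SCC6 libraries, and against the limit of 3 counts over the PBS group, or 0.0198 CPM, SCC1 was at least 583-fold higher and SCC25 at least 26.3-fold higher.

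CDKN2B, the gene of p15, lies next to it (chromosome 9, 22002902 to 22009304, minus strand) and was called higher in both lines that express it. In SCC1 PBS libraries held 14.7, 14.5, 15.7, 15.6 and 16.8 CPM and cetuximab libraries 39.4, 55.5, 56.8, 61.2 and 65.1. The groups were far apart, with a log2 change of 1.86 ± 0.12 (SE), adjusted p = 4e-07, and PBS day 5 on the flow cell of the cetuximab libraries was at 16.8 CPM. SCC25 gave 33.1, 30.5, 34.2, 34.3 and 36.9 CPM with PBS and 46.3, 49.7, 52.8, 63.9 and 67.8 with cetuximab. Every cetuximab library was above every PBS library, days 1 and 2 on the shared flow cell included (log2 change 0.72 ± 0.10 (SE), adjusted p = 7e-04). The rise was larger in SCC1, by 1.11 ± 0.16 (SE) on the log2 scale (SCC25 minus SCC1 -1.11, adjusted p = 5e-05), and the cetuximab levels of the 2 lines, 55.6 ± 9.81 and 56.1 ± 9.31 CPM (SD, n = 5), lay within each other's range. SCC6 held no count on days 1 to 5 and 1 on day 0, so SCC1 PBS was at least 782-fold and SCC25 PBS at least 1710-fold higher. The flanking genes of 9p21 were read in SCC6 all the same. MTAP, a methionine salvage enzyme, was at 93.7 ± 13.3 CPM with PBS, and the antisense transcript CDKN2B-AS1, which overlaps CDKN2B, at 0.914 ± 0.164. The kit marks strand, and whether counting used it is not given in the sources used here. Under cetuximab MTAP fell in SCC1 (-0.56 (adjusted p = 9.9e-06)) and SCC25 (-0.50 (adjusted p = 7e-04)), while CDKN2B rose. Of the 6 neighbours at 9p21 tested in SCC1, 2 rose and 2 fell. DMRTA1 (0.91, adjusted p = 0.00018) and KLHL9 (0.32, adjusted p = 0.0022) rose, and IFNE fell (-2.16, adjusted p = 7.3e-06) beside MTAP. In SCC25 MTAP alone of the 6 was called.

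**Figure D4:**
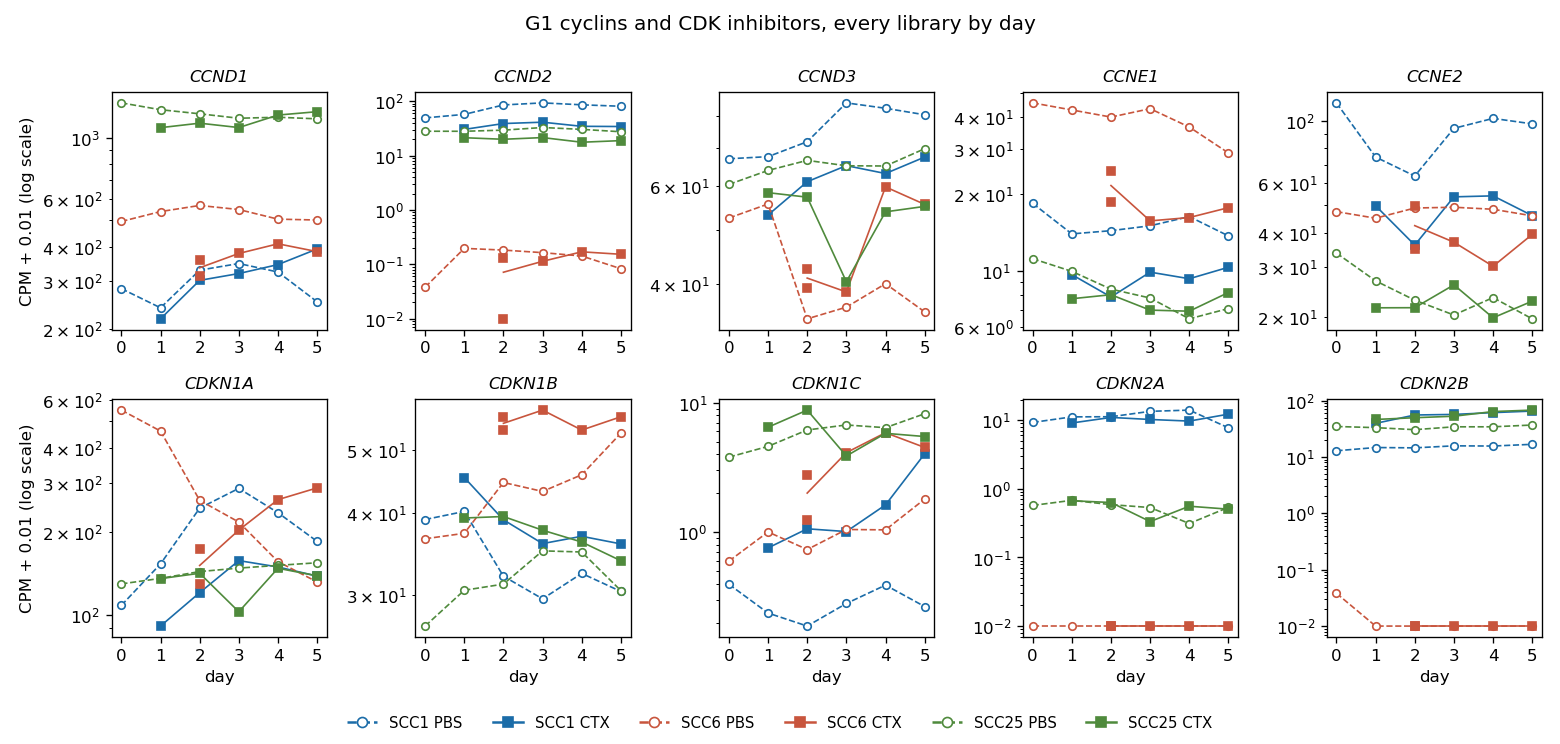
Level of each gene by day (CPM + 0.01, log axis) in every library; open circles and dashed lines are PBS, filled squares and solid lines cetuximab, and the colours are SCC1, SCC6 and SCC25. CCND2 and CDKN2B of SCC1 and SCC25 stand apart between treatments on each day, and SCC6 lies on the floor for CDKN2A and, from day 1, for CDKN2B.

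Of the members tested, 6 of 10 in SCC1, 3 of 7 in SCC6 and 3 of 10 in SCC25 had PBS and cetuximab ranges that did not overlap. This stands beside 31.3%, 19.1% and 14.7% of all genes tested in these lines. The line-by-treatment test, which asks whether the change differs over the 3 lines, called 7 of 10 members beside 26% of all genes, 2 of them (CCND2 and CDKN2B) without enough counts in SCC6 for its change to be read. Among the other 5, CCND1 (adjusted p = 0.0079) fell in SCC6 and passed in neither other line, and CCND3 (adjusted p = 0.024) fell in SCC1 and SCC25. CCNE1 and CCNE2 changed least in SCC25 (adjusted p = 0.00031 and 0.0026), and CDKN1C rose in SCC1 and SCC6 (adjusted p = 0.001). The CCND3 call was lost without SCC6 PBS day 2, 3 or 5 or cetuximab day 4 or 5 (adjusted p = 0.056 to 0.088). Adjusting for flow cell left 4 members called. The calls lost were those of CCND3 (adjusted p = 0.054), CCND2 (0.13) and CDKN1C (0.18, its largest difference between lines then 2.45). CDKN1A, not called otherwise (adjusted p = 0.33), passed without SCC6 PBS day 1 (0.043). Between SCC1 and SCC25 alone, 15% of all genes differed in their change, and the members called were CCND2, CCNE1, CCNE2, CDKN1C and CDKN2B.

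Over days 0 to 5 with PBS, 5 of the 7 tested members moved in SCC6, beside 38.3% of all genes, 4 of 10 in SCC25, beside 13.7%, and 0 of 9 in SCC1, beside 3.95%. In SCC1, 4 of the 9 had an unadjusted p under 0.05, and DESeq2 called 1. Besides CDKN1A, SCC6 showed falls of CCND3 and CCNE1 (-0.13 ± 0.04 and -0.12 ± 0.03 per day on the log2 scale) and rises of CDKN1B and CDKN1C (0.09 ± 0.03 and 0.24 ± 0.08). In SCC25, CCNE1 and CCNE2 fell (-0.15 ± 0.03 and -0.13 ± 0.03 per day) and CDKN1A and CDKN1C rose (0.05 ± 0.02 and 0.20 ± 0.04). Without day 0 the count was 1 in SCC6, CDKN1A, and 1 in SCC25, CDKN1C. The 4 other SCC6 calls were lost without day 5 too, that of CCND3 also without day 1, 3 or 4, that of CDKN1B without day 1 and that of CDKN1C without day 3. The CDKN1A call in SCC25 was lost without any library but day 2. All genes called ranged from 31 without day 1 to 1779 without day 5 in SCC1, from 2077 without day 0 to 6900 without day 2 in SCC6, and from 1249 without day 0 to 2579 without day 2 in SCC25.

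No member passed the test of whether the difference between cetuximab and PBS changed with the day in SCC1 (0.578% of all genes called) or SCC25 (0% called), or with the period in SCC6 (0% called). At an unadjusted p under 0.05 there were 2, 3 and 3 members, and DESeq2 called 0, 0 and 1, the last being CDKN1A. With 1 library left out, all genes called ranged from 11 (cetuximab day 5) to 486 (PBS day 1) in SCC1, reached 239 in SCC25 (cetuximab day 3), and were 1664 and 1570 in SCC6 without PBS day 1 and PBS day 3. CDKN2B was not called by day in SCC1 (0.12 ± 0.05 (SE), adjusted p = 0.32 per day) or SCC25 (0.10 ± 0.04 (SE), adjusted p = 0.78 per day). It was among the members at an unadjusted p under 0.05 in both. Its cetuximab level was lowest on day 1 and highest on day 5 in both lines.

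The rest of the G1 machinery was read from lists chosen for the pathway, with earlier results of these data known. The counts from these lists, set beside all genes, are therefore a description and not an independent test. Over all genes tested, the share called lower was 22% for SCC1, 14.5% for SCC6 and 9.47% for SCC25, and the share called higher was 22.5%, 15.5% and 8.72%. ERK output genes fell in every line, 8 of 10 in SCC1, 8 of 10 in SCC6 and 9 of 10 in SCC25, with medians of -2.30, -1.76 and -1.07. EGR1, an immediate early factor, was at -3.64 (adjusted p = 3.8e-05), -4.35 (adjusted p = 3e-06) and -2.44 (adjusted p = 3.7e-05). S phase genes fell in 14 of 15 cases in SCC1, 2 of 15 in SCC6 and 7 of 15 in SCC25, with none rising, and the SCC6 count is near the share of all genes called lower. RRM2, a ribonucleotide reductase subunit, was at -1.01 (adjusted p = 6.4e-07) in SCC1 and -0.79 (adjusted p = 0.0039) in SCC6, and CDC45, a helicase factor, at -0.39 (adjusted p = 0.0016) in SCC25. The list of G1 kinases held 7 genes, CDK2, CDK3, CDK4, CDK6, CDK7, CCNH and MNAT1, of which CCNH and MNAT1 do not encode kinases. Of these 7, 6 fell and 1 rose in SCC1, 1 fell and 1 rose in SCC6, and 4 fell in SCC25. CCNH and MNAT1 were among the falls in SCC1, and CCNH among those in SCC25. The fall in SCC6 was that of CCNH (-0.53 (adjusted p = 0.02)), so no kinase gene of the list was called lower there. The 2 of 7 called in SCC6 are near the share of all genes. CDK2 was at -0.52 (adjusted p = 6.1e-06) in SCC1, CDK4 at -0.39 (adjusted p = 0.00017) there and -0.41 (adjusted p = 0.0079) in SCC25, and CDK3 at 0.50 (adjusted p = 0.026) in SCC1 and 0.95 (adjusted p = 0.0036) in SCC6. Of 3 pocket protein genes, RB1 (-0.48 (adjusted p = 3.7e-05)) and RBL1 fell and RBL2 (0.45 (adjusted p = 8e-05)) rose in SCC1, RBL2 rose in SCC25 (0.28 (adjusted p = 0.0033)), and none changed in SCC6.

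Of 10 E2F and DP genes, 6 fell and 1 rose in SCC1, 4 fell in SCC6, and 4 fell and 1 rose in SCC25. E2F7, a repressor of the family, was at -0.88 (adjusted p = 3.9e-07) in SCC1 and -0.59 (adjusted p = 0.00066) in SCC25, and E2F5 at -0.56 (adjusted p = 0.0071) in SCC6. Of 9 genes of turnover and activation, 4 fell and 1 rose in SCC1, 2 fell and 1 rose in SCC6, and 2 fell in SCC25. The counts in SCC6 and SCC25 are near the 30.1% and 18.2% of all genes called. CDC25A, the phosphatase that activates CDK2, fell in all 3 lines, at -0.98 (adjusted p = 3.5e-06), -0.88 (adjusted p = 0.0034) and -0.56 (adjusted p = 0.0046). SKP2, whose product marks p27 for degradation, rose in SCC1 (0.43 (adjusted p = 2e-04)) and SCC6 (0.39 (adjusted p = 0.0063)). Of 10 genes of p53 and its targets, 5 rose and 3 fell in SCC1, 4 rose in SCC6, and 1 rose and 1 fell in SCC25, TP53I3 rising in each line (0.81 (adjusted p = 0.02), 1.54 (adjusted p = 0.0014) and 0.40 (adjusted p = 0.011)). Of this list too, the share called in SCC25 is near that of all genes, and in SCC6 it is 4 of 10 beside 30.1%. The other INK4 gene that moved was CDKN2C (p18), which rose in SCC6 (1.25 (adjusted p = 0.00025)).

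Over the 30 libraries of days 1 to 5, with the mean of each line removed, the genes closest to each member were named by Pearson's r among genes at a mean log2 CPM of at least 3. These points share line, treatment and day, and treatment means were not removed. The SCC6 libraries held no count of CDKN2B and 0 to 12 counts of CCND2, so r for these genes rests mainly on SCC1 and SCC25. For CCNE2 they were FAM111B (0.907), CLSPN (0.907) and UBR7 (0.895), for CCNE1 TMCC3 (0.931), MRM2 (0.924) and MLKL (0.922), and for CCND2 PPP1R15A (0.892), PHC2 (0.862) and CSNK1E (0.857). CCND3 went with SETD1A (0.934), FASN (0.928) and WIZ (0.919), and CCND1, with the lowest values, with CIAO1 (0.762), NUDT19 (0.757) and KPNA6 (0.75). Among the inhibitors, CDKN2B went with HIST1H1C (0.956), PERP (0.943) and PLD1 (0.941), and CDKN1C with GLB1 (0.936), FAM234A (0.933) and MTSS1L (0.926). CDKN1A was closest to FAM214B (0.912), MYDGF (0.905) and BCL2L1 (0.905), and CDKN1B to HMGN3 (0.903), SAP30L (0.87) and ZC2HC1A (0.866). CDKN2A was below the level needed for this comparison.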

How the data were processed

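The authors inferred transcript levels with Salmon (version 0.8.2 and hg19/GRCh37 by the submitters' processing notes; the annotation is not given in the sources used here) and deposited estimated counts per gene symbol, not normalised between libraries. The deposited estimated counts were rounded for the tests. The 10 genes and the pathway lists were chosen with earlier results of these data known. The genes named are all 10 members; the called genes of each list with the largest rises and falls per line (at most 2 each way), of which the text gives a selection; and, for each member at a mean log2 CPM of at least 0, the 3 genes most correlated with it.

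Genes were filtered by filterByExpr, scaled by TMM and tested with edgeR's quasi-likelihood test (edgeR 4.0.16, R 4.3.3), with Benjamini-Hochberg adjustment over all genes tested. DESeq2 1.42.0, other scalings, no filter, libraries left out, day blocks, flow cell, day 0 and GC content were alternatives. Alternatives added after seeing the data were GC content together with the day block, SCC6 without days 4 and 5, GC content in the test between lines, and SCC1 with SCC25 alone. The code was tested on simulated data. Ratios to a group at 0 used 3 counts over the group.

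Same-day libraries are paired by the day in the labels. Deviations from the group means of same-day libraries correlated at 0.11 to 0.38 in SCC1, 0.22 to 0.58 in SCC25 and -0.17 to 0.58 over the 3 days that SCC6 has in both groups. Totals of 28508758 to 80727478 counts per library set the precision, and the limits given cover counting error only. Positions are from GENCODE release 44 on GRCh37, and promoters from RefSeq on GRCh38.p14, which held 6 of the 10 genes.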

Additional observations from a re-analysis of the deposited data

Results flagged for a closer look

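Among 56 groups of 5 libraries, 5 held a library far from the other 4, where chance flags about 1 in 20. In SCC25 with cetuximab, day 3 was low for CCND3 (40.3 CPM, the next 53.8) and for CDKN1A (103 CPM, the next 135.5). PBS day 1 was high for CCND3 in SCC6 (55.6 CPM, the next 39.99) and for CDKN1B in SCC1 (40.2 CPM, the next 32.3). Cetuximab day 5 was high for CDKN1C in SCC1 (4.02 CPM, the next 1.62).

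The change under cetuximab differed between lines for 7 members, of which CCND2, CCND3 and CDKN1C were not called after adjusting for flow cell. The largest difference between 2 lines in the log2 change was 0.61 for CCND1, 0.54 for CCND3, 0.98 for CCNE1, 0.83 for CCNE2 and 2.73 for CDKN1C, by the line-by-treatment test over 3 lines. For genes too low in SCC6, SCC25 minus SCC1 was 0.60 for CCND2 and -1.11 for CDKN2B.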

How the results depend on the processing

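With flow cell as a covariate, 4 members were called in SCC1 (7 without it), CCND2, CCNE1, CCNE2 and CDKN2B, and 4 in the test between lines (7). CDKN2A of SCC1, not called in either, turned to 0.45. All genes called then numbered 4171 in SCC1 (8005), 1442 in SCC25 (3474) and 3046 between lines (5563). CDKN1C of SCC25 turned to 0.25 with flow cell, 0.03 with day 0 added, 0.02 with GC content removed and 0.03 with GC content and the day as replicate block. CCNE2 of SCC25 was 0.03 and CDKN1A of PBS SCC1 against SCC6 was 0.01 by total counts, and CCND3 of SCC6 was -0.10 without days 4 and 5, where 2711 genes were called (5226). GC removal called 5648 genes in SCC25, and 7332 with the replicate block. The block changed no call of a member but those of CDKN1B. DESeq2 called 1 member for PBS days in SCC1 (0) and 1 for the SCC6 period (0). No filter gave 3 for PBS days in SCC6 (5) and 2 for the SCC6 period, and without day 0, 1 was called in SCC6 (5) and 1 in SCC25 (4). For PBS days, total counts gave a share of rises of 44.5% in SCC1 (65.9%), 54.6% in SCC6 (43.1%) and 52% in SCC25 (64.2%). DESeq2 called 1528 genes for PBS days in SCC1 (645), 418 for SCC1 by day (104), 30 for SCC25 by day (0) and 2859 for the SCC6 period (0). No filter gave 267, 9 and 3366 for these last 3, and without day 0, PBS days gave 110, 2077 and 1249 in SCC1, SCC6 and SCC25. The cause was not tested.

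With each library left out, members called ranged from 0 to 2 for PBS days in SCC1, 1 to 5 in SCC6 and 1 to 4 in SCC25, 0 to 1 for SCC1 by day and 0 to 1 for the SCC6 period. The log2 change ranged from -0.01 to 0.20 for CCND1 in SCC1, -0.40 to 0.12 for CDKN1A in SCC6, and in SCC25 from -0.14 to 0.03 for CCNE1, -0.08 to 0.06 for CCNE2, -0.24 to 0.05 for CDKN1C and -0.11 to 0.16 for CDKN2A. Under PBS it ranged from -0.32 to 0.20 for CDKN1A in SCC1 against SCC6 and -0.06 to 0.06 for CDKN1B in SCC1 against SCC25. All genes called in SCC25 ranged from 2196 to 4002. Of the member results with a library left out, 1012 kept direction and side of the threshold, 37 lost and 9 gained a call, and 16 turned. Depth limits what can be read of CDKN2A, CDKN2B and CCND2 in SCC6, CDKN1C in SCC1 and CDKN2A in SCC25.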
